A study of Mus musculus with 16 samples.

Results

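The SLAM family is a group of immune cell surface receptors of the immunoglobulin superfamily together with the small adaptor that carries their signals. The members examined here were the receptors Slamf1, Slamf6, Slamf7, Ly9, Cd48, Cd84 and Cd244a and the adaptor Sh2d1a, chosen by gene symbol. They make 8 of the 19531 named genes on the array, and each was measured by 1 probe set. The 7 receptor genes lie side by side in a cluster on chromosome 1, and Sh2d1a lies on the X chromosome. Most SLAM receptors bind a copy of themselves on a neighbouring cell, whereas Cd48 is a lipid-anchored protein that serves as ligand for Cd244a and Cd2. Sh2d1a encodes SAP, an SH2-domain adaptor that binds tyrosine motifs in the receptor tails and brings in the kinase Fyn. In the thymus, SLAM contacts between cortical thymocytes are known for their role in selecting innate-like lineages such as NKT cells, and the cluster carries different haplotypes in NOD and C57BL/6 mice.

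The arrays measured RNA of sorted double-negative thymocytes from mice aged 4 weeks. NOD mice, which develop autoimmune diabetes, were set against B6g7 mice, which are C57BL/6 animals with the NOD MHC haplotype, so that both strains shared that haplotype. In each strain, mice with the BDC2.5 T cell receptor transgene (BDC), taken from a diabetogenic CD4 T cell clone, were set against mice with no transgene (non-Tg). Cells left after CD4 and CD8 depletion were sorted as DN2-3 (CD4-CD8-Lin-CD25+) or DN4 (CD4-CD8-Lin-CD44-CD25-). The 8 groups were therefore B6g7 DN2-3, NOD DN2-3, BDC/B6g7 DN2-3, BDC/NOD DN2-3, B6g7 DN4, NOD DN4, BDC/B6g7 DN4 and BDC/NOD DN4, with 2 arrays in each. All non-Tg arrays were from females, and replicate 1 of every BDC group was from a male and replicate 2 from a female. The labels leave unsaid whether replicates are separate mice, and the p-values therefore reflect no more than the variation between these arrays, which may be technical.

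The 16 arrays had median intensities between 123.1 and 138.2. The NOD DN2-3 arrays differed most, with a median absolute log2 difference of 0.25 between them, against 0.07 to 0.13 in the other pairs. Replicate 1 of that group also had the lowest ratio of upper to lower quartile, 6.82, against 7.46 to 10.30 on the other arrays. The effect of leaving out replicate 1 is given beside the comparisons that use it. As the group mean is the mean of both arrays, leaving out replicate 2 moves each difference equally far the other way. Y-linked genes on female arrays read up to 5.98 log2, and signals no higher than that were taken as not above background. Il2ra, which encodes the CD25 used in the sort, ran from 12.32 to 13.30 log2 in DN2-3 and from 9.09 to 10.56 in DN4. Of the 6 DN2-3 markers as a list, 5 were lower in DN4 in B6g7 with and without the transgene, 2 in non-Tg NOD and 1 in BDC/NOD, and none was higher. Over all genes tested, 42.8% differed between the stages in non-Tg B6g7, 50.8% in BDC/B6g7, 38.6% in non-Tg NOD and 11.1% in BDC/NOD. The list read for DN4 holds Cd44 and Kit beside the coreceptor genes Cd4, Cd8a and Cd8b1. As the DN4 sort excluded CD44, a lower call in this list does not by itself count against DN4. Of these 5 genes, 3 were higher and 2 lower in DN4 in every setting but BDC/B6g7, where 0 were higher and 2 lower. The defining NK cell receptor genes Ncr1, Klrb1c and Klre1 and the B cell genes Cd79a, Ms4a1 and Ebf1 were not above background on any array, whereas Cd79b of the same B cell list read 8.59 to 9.69. Of the myeloid list, Csf1r, Itgam and Cd14 were never above background, and Lyz2 reached 8.08 in DN2-3. Of the stromal list, Krt5 was never above background, and Col1a1 read 7.38 to 7.86.

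Promoter sequences from RefSeq (GRCm38.p6, the C57BL/6J reference) were held for 6 of the 8 genes, and Ly9 and Sh2d1a were not among them. Those of 4 receptors are shown because their genes form the pairs that moved together across the groups, Slamf1 with Cd84 and Cd48 with Cd244a. Each runs from 250 bases before to 50 bases after the gene start and is printed 5′ to 3′ on the strand of the gene, with E-boxes, the letters CANNTG read on both strands, in capitals. E-boxes are the sequences bound by basic helix-loop-helix factors, a class with central roles in early thymocytes.
Slamf1, chr1:171766882-171767181, plus strand: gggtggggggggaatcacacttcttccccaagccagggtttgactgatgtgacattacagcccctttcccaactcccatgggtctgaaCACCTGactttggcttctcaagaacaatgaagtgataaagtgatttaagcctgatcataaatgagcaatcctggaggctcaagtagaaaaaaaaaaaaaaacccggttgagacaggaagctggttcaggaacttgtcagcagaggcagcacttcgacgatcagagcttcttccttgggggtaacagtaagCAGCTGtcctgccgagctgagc
Cd84, chr1:171839447-171839746, plus strand: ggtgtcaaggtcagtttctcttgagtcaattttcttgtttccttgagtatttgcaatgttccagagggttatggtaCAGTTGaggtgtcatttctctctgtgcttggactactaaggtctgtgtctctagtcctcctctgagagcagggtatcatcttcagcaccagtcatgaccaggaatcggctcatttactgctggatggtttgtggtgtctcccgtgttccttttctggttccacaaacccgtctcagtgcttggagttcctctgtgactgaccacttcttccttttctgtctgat
Cd48, chr1:171681742-171682041, plus strand: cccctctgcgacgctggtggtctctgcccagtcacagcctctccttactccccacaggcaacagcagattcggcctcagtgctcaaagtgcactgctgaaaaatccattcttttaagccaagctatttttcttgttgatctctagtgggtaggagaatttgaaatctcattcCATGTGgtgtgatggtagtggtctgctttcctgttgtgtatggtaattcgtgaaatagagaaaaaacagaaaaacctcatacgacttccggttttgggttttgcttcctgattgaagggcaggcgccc
Cd244a, chr1:171558943-171559242, plus strand: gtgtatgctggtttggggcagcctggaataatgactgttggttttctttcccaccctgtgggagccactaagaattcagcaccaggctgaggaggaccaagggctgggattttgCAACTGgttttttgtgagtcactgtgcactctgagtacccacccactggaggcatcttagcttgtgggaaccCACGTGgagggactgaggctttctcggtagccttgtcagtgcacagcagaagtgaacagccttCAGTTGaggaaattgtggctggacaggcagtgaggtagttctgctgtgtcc
The Slamf1 window held 2 E-boxes, of which the first reads CAGGTG on the opposite strand and the second reads CAGCTG. Over all 32851 promoters of the same length, 20.2% held CAGGTG, 16.3% held CAGCTG and 72.3% held any E-box. The Cd84 and Cd48 windows held 1 E-box each and the Cd244a window held 3. A Runx motif, ACCACA on either strand, was found once in Cd84 and once in Cd48, where it overlapped the E-box, and not in the Slamf1 or Cd244a windows, against 16.8% of all promoters. The Myb core AACNG, held by 80.3% of promoters, overlapped E-boxes in Cd84 and Cd244a. These matches describe the reference letters only, and the NOD sequence was not analysed here.

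The first comparison asked whether the SLAM genes differ between the NOD and B6g7 backgrounds. Slamf1 was lower in NOD in every combination of genotype and stage, by 2.72-fold to 4.75-fold. Averaged over the 4 contexts, Cd48, Ly9, Cd244a, Cd84 and Slamf6 were also lower in NOD by smaller amounts, and Sh2d1a did not pass the test. In these bulk samples fewer cells that express a gene and less RNA of it per cell cannot be told apart. Each member had 1 probe set, and NOD sequence differences under the probes were not examined. A strain difference given here is therefore one of probe signal. Tests were limited to genes with at least 1 group mean at or above 7.05 log2, and 7 of the 8 members passed this filter. A difference passed where limma's adjusted p (Benjamini-Hochberg over the 10689 genes tested) was under 0.05. Cd244a reached the filter only through the BDC/B6g7 DN2-3 group, in which it was highest, so that its calls against that group are a description and counts are given with and without it. Of the 7, 6 passed in the average of contexts (5 of 6 without Cd244a), all of them lower in NOD, where 41.6% of all genes tested passed and 1590 genes were lower. In single contexts the count was 1 in non-Tg DN2-3, where 10.6% of all genes passed, and 4 in BDC DN2-3 (3 without Cd244a), where 9.19% passed. It was 3 in non-Tg DN4, where 18.7% passed, and 4 in BDC DN4, where 41.0% passed, and every one of these calls was lower in NOD. The count in non-Tg DN2-3 was near the background share, and without replicate 1 of NOD DN2-3 it was 3, where 8.02% of all genes then passed. Without replicate 2 of that group it was 2, where 44.5% of all genes then passed. The median log2 difference of the 6 genes other than Cd244a in the average was -0.35, against 0.04 over all genes tested.

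**Figure D1:**
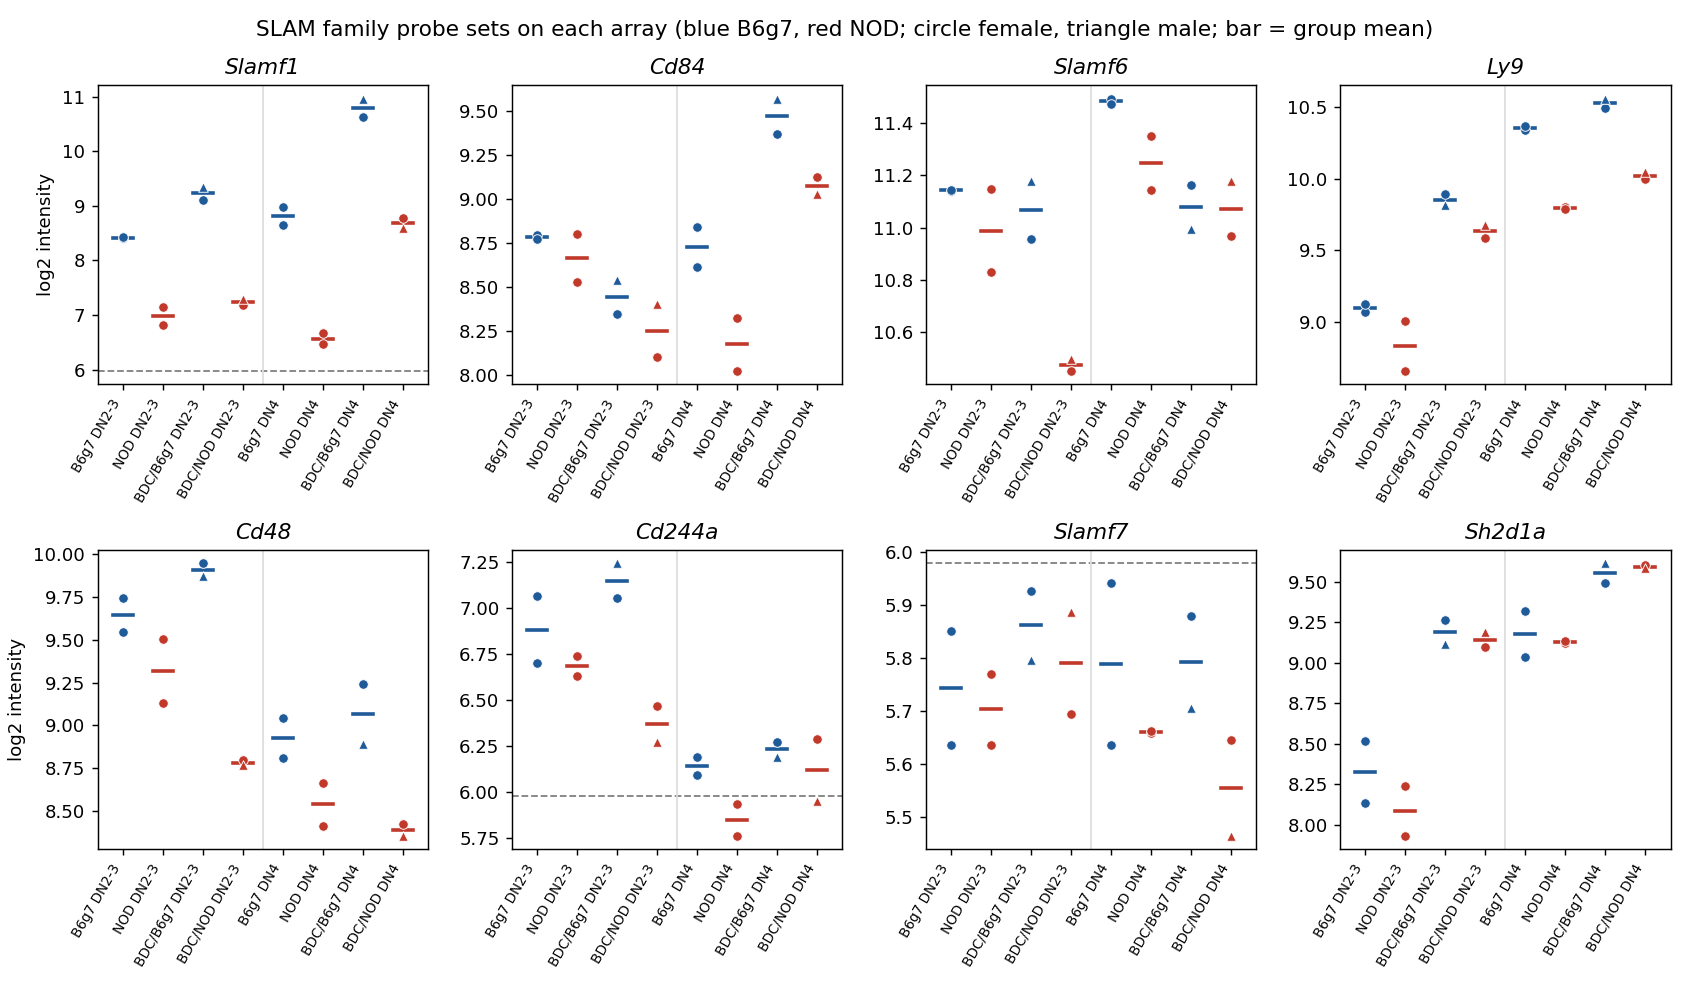
Log2 intensity of each SLAM family probe set on all 16 arrays, by group, with scales that differ between panels; blue is B6g7 and red is NOD, circles are female and triangles male arrays, bars are group means, and the dashed line is the background level of 5.98. Slamf1 spans the widest range, from 6.47 in NOD DN4 to 10.97 in BDC/B6g7 DN4, and Slamf7 stays below the dashed line on every array.

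Slamf1, also known as SLAM or CD150, is a self-binding receptor and the founding member of the family. In DN2-3 its log2 intensity was 8.41 and 8.43 in B6g7 and 7.14 and 6.81 in NOD. In DN4 it was 8.98 and 8.65 in B6g7 and 6.67 and 6.47 in NOD. With the transgene it was 9.35 and 9.11 in BDC/B6g7 DN2-3, 7.30 and 7.18 in BDC/NOD DN2-3, 10.97 and 10.62 in BDC/B6g7 DN4 and 8.59 and 8.78 in BDC/NOD DN4. Every NOD array therefore read below both B6g7 arrays of the same genotype and stage. With 2 arrays on each side, such separation here and in other members is a description, and its share over all genes was not counted. The NOD minus B6g7 log2 difference was -1.44 in non-Tg DN2-3 and -1.99 in BDC DN2-3. In DN4 it was -2.25 without and -2.10 with the transgene, each with an SE of 0.15. The average was -1.94 ± 0.08 (SE, 2 arrays in each of 8 groups; limma adjusted p = 9.7e-10), and -1.99 ± 0.07 without replicate 1 of NOD DN2-3. By size of difference, Slamf1 ranked from 14 to 74 of the 10689 genes in the 4 contexts. From highest to lowest, the group means ran BDC/B6g7 DN4, BDC/B6g7 DN2-3, B6g7 DN4, BDC/NOD DN4, B6g7 DN2-3, BDC/NOD DN2-3, NOD DN2-3 and NOD DN4, and in this order only B6g7 DN4 and BDC/NOD DN4 were neighbours whose arrays overlapped. The NOD DN4 arrays lay above the Y-linked background but within the 5.70 to 6.73 log2 that Xist, a gene silent in males, read on male arrays.

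Ly9, a self-binding receptor also called CD229, was lower in NOD by less than Slamf1. It read 9.07 and 9.13 in B6g7 DN2-3 and 9.00 and 8.66 in NOD DN2-3, and 10.34 and 10.37 in B6g7 DN4 and 9.80 and 9.79 in NOD DN4. With the transgene it read 9.81 and 9.89 in BDC/B6g7 DN2-3 and 9.68 and 9.58 in BDC/NOD DN2-3, and 10.56 and 10.50 in BDC/B6g7 DN4 and 10.05 and 9.99 in BDC/NOD DN4. The strains did not overlap in any of the 4 contexts, yet the difference passed the test only in DN4. It was -0.56 without the transgene (limma adjusted p = 0.00364) and -0.51 with it (adjusted p = 0.00158), each with an SE of 0.10. The DN2-3 differences of -0.27 and -0.22 did not pass, with adjusted p of 0.119 and 0.262. The non-Tg DN2-3 difference was -0.44 without replicate 1 of NOD DN2-3 and -0.09 without replicate 2.

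Cd48 and Cd244a are a ligand and its receptor, and their group means followed one another with a Pearson r of 0.93 over the 8 groups, a description in which both genes share the same arrays. Cd48 read 9.75 and 9.55 in B6g7 DN2-3, 9.51 and 9.13 in NOD DN2-3, 9.87 and 9.95 in BDC/B6g7 DN2-3 and 8.77 and 8.80 in BDC/NOD DN2-3. In DN4 it read 9.05 and 8.81 in B6g7, 8.66 and 8.41 in NOD, 8.89 and 9.24 in BDC/B6g7 and 8.35 and 8.42 in BDC/NOD. The BDC/NOD arrays were the lowest in DN2-3, and in every context no NOD array reached the B6g7 arrays. The NOD minus B6g7 difference was largest in BDC DN2-3, at -1.13 ± 0.15 or 2.19-fold (limma adjusted p = 0.000246), and was -0.68 in BDC DN4 (adjusted p = 0.0024). The non-Tg differences were -0.33 in DN2-3 and -0.39 in DN4 and did not pass, with adjusted p of 0.168 and 0.0779. The former was -0.52 without replicate 1 of NOD DN2-3 and -0.14 without replicate 2.

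Cd244a, the receptor 2B4 of NK and some T cells, was close to background in DN4. It read 7.06 and 6.70 in B6g7 DN2-3, 6.74 and 6.63 in NOD DN2-3, 7.24 and 7.06 in BDC/B6g7 DN2-3 and 6.27 and 6.47 in BDC/NOD DN2-3. In DN4 it read 6.09 and 6.19 in B6g7, 5.93 and 5.76 in NOD, 6.19 and 6.27 in BDC/B6g7 and 5.95 and 6.29 in BDC/NOD. The signal was not above background in either NOD DN4 array or in 1 BDC/NOD DN4 array, and only the BDC/B6g7 DN2-3 mean of 7.15 brought the gene past the filter. Every DN4 array, both BDC/NOD DN2-3 arrays and replicate 2 of B6g7 and of NOD DN2-3 lay within the 5.70 to 6.73 log2 that Xist read on male arrays. The Cd244a differences therefore involve signals at the level of a silent gene. The NOD minus B6g7 difference in BDC DN2-3 was -0.78 ± 0.14. As it is taken against the group through which the gene entered the tests, it is given as a description, and no other single context passed. Its average, which includes that group, was -0.35 ± 0.07, and -0.31 ± 0.07 with signals raised to the background level.

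Cd84 and Slamf6 are self-binding receptors that signal through SAP in T cells. Cd84 read 8.80 and 8.78 in B6g7 DN2-3, 8.80 and 8.53 in NOD DN2-3, 8.54 and 8.35 in BDC/B6g7 DN2-3 and 8.40 and 8.10 in BDC/NOD DN2-3. In DN4 it read 8.84 and 8.61 in B6g7, 8.32 and 8.02 in NOD, 9.57 and 9.37 in BDC/B6g7 and 9.03 and 9.13 in BDC/NOD. The strains overlapped in DN2-3 and were apart in DN4. The NOD minus B6g7 difference of Cd84 was -0.55 ± 0.14 in non-Tg DN4 (limma adjusted p = 0.0204) and -0.40 ± 0.14 in BDC DN4 (adjusted p = 0.0406). Neither call held throughout when 1 array was left out: the former was lost without replicate 1 of B6g7 DN4 (-0.44; limma adjusted p = 0.149) or replicate 2 of NOD DN4 (-0.40; adjusted p = 0.197), and the latter without any 1 of 6 arrays, at -0.50 to -0.29.

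Slamf6, also called Ly108, varied least of the tested members, its 8 group means spanning 1.01 log2 against 4.22 for Slamf1. It read 11.14 on both B6g7 DN2-3 arrays, 11.15 and 10.83 in NOD DN2-3, 11.18 and 10.96 in BDC/B6g7 DN2-3 and 10.50 and 10.45 in BDC/NOD DN2-3. In DN4 it read 11.49 and 11.47 in B6g7, 11.35 and 11.14 in NOD, 10.99 and 11.16 in BDC/B6g7 and 11.18 and 10.97 in BDC/NOD. Only BDC/NOD DN2-3 stood below all other groups. The strain difference passed there, at -0.59 ± 0.12 (limma adjusted p = 0.00829), and was lost without replicate 1 of BDC/B6g7 DN2-3 (-0.48; adjusted p = 0.0971) or replicate 2 of BDC/NOD DN2-3 (-0.57; adjusted p = 0.0782). In BDC DN4 it was -0.0046 ± 0.12.

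Slamf7, a self-binding receptor of NK and activated cells, ran from 5.46 to 5.94 log2 over the 16 arrays and was not above background on any of them. It was therefore not tested, and no difference is given for it. Sh2d1a, the SAP adaptor, was the tested member without a strain difference that passed with all arrays in the fit. Its non-Tg DN2-3 difference was -0.24, and was -0.39 without replicate 2 of NOD DN2-3 and -0.09 without replicate 1. In DN2-3 it read 8.52 and 8.14 in B6g7 and 7.93 and 8.24 in NOD, and with the transgene 9.11 and 9.26 in BDC/B6g7 and 9.19 and 9.10 in BDC/NOD. In DN4 it read 9.32 and 9.03 in B6g7, 9.12 and 9.14 in NOD, 9.61 and 9.49 in BDC/B6g7 and 9.58 and 9.60 in BDC/NOD. The strains overlapped in all 4 contexts, and the average NOD minus B6g7 difference was -0.07 ± 0.07 (limma adjusted p = 0.434).

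**Figure D2:**
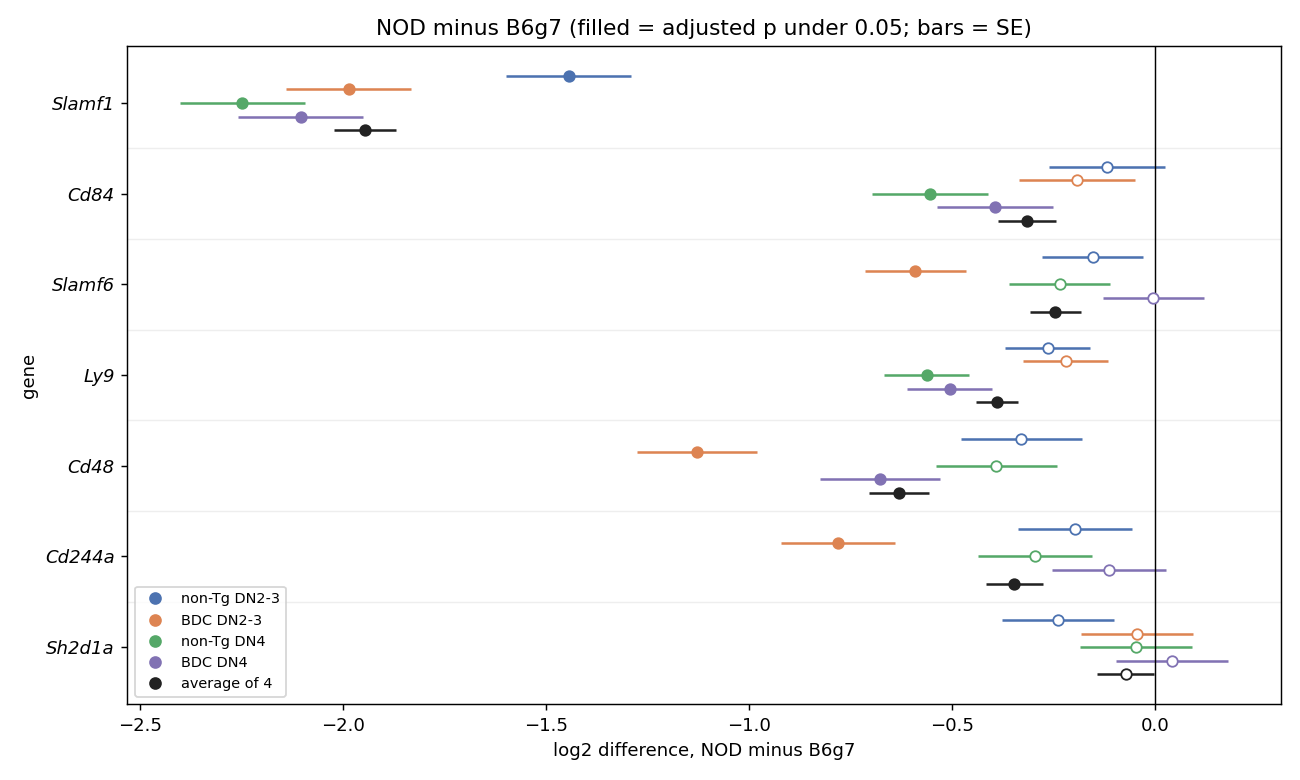
NOD minus B6g7 log2 difference (x axis) of the 7 tested SLAM family genes (y axis) for each combination of genotype and stage and for the mean of the 4 contexts; bars are SE and filled points have adjusted p under 0.05. All 5 Slamf1 points lie at -1.44 or lower, whereas the Sh2d1a points lie between -0.24 and 0.04.

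Cell type markers also differed between the strains. In the average, where 41.6% of all genes passed, 4 of the 5 gamma-delta T cell markers were lower in NOD and 1 did not pass, and of the 4 mature T cell markers on the array 3 were lower. Of the 6 markers of the DN2-3 stage, 4 were higher in NOD and 1 was lower. The summed intensity of the gamma-delta markers ran from 13742 to 14818 in BDC/B6g7 DN4 and from 8000 to 8489 in BDC/NOD DN4, and from 1727 to 1760 in B6g7 DN4 and 1649 to 1803 in NOD DN4. In DN2-3 it ran from 6162 to 6292 in BDC/B6g7 and from 3853 to 4153 in BDC/NOD, and from 1516 to 1538 in B6g7 and 1209 to 1353 in NOD. In non-Tg DN4, where 18.7% of all genes passed, 2 of the 5 markers were lower in NOD by the test. Their sums overlapped there between the strains, and the Slamf1 difference was -2.25. The part of these markers in the strain differences was not tested. The summed NK markers stayed between 96.1 and 126.2 on all arrays.

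The position of the receptor genes allowed a look at the surrounding genes, ordered by the GRCm38.p6 annotation. Of the 15 protein-coding genes on each side of the cluster, 28 of 30 were on the array and 18 were tested. In NOD minus B6g7 averaged over contexts 2 were higher, 4 were lower and 12 did not pass, a smaller share than the 41.6% of all genes, and their median absolute difference was 0.14 log2. The largest was Vangl2, a planar cell polarity protein gene next to Slamf6, at -0.56 ± 0.09 (limma adjusted p = 0.000313). It was followed by Ppox, an enzyme of haem synthesis, at -0.52 ± 0.10, Ufc1, a ubiquitin-fold conjugating enzyme, at 0.38 ± 0.08, and B4galt3, a galactosyltransferase, at -0.26 ± 0.06. On the Cd244a side the nearest gene, Itln1, an intelectin gene, was below the filter. Within the cluster, the difference was -0.35 at Cd244a, -0.39 at Ly9, -0.63 at Cd48, -1.94 at Slamf1, -0.32 at Cd84 and -0.25 at Slamf6, in gene order. The one at Slamf1 was thus larger than at any of the tested neighbours or other members.

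The second comparison asked how the SLAM genes differ when the BDC2.5 receptor is present. Slamf1 and Cd84 rose in transgenic DN4 cells of both strains, and Ly9 rose in transgenic DN2-3 cells. Sh2d1a rose at both stages in both strains, though its DN4 calls did not hold with sex as a term. Cd48, Cd84 and Slamf6 fell in transgenic NOD DN2-3 cells, in calls that did not hold under every alternative. Of the 7 tested genes, 3 passed in B6g7 DN2-3, all higher with the transgene, where 29.4% of all genes tested passed. In NOD DN2-3, 5 passed, 2 higher and 3 lower, where 35.6% passed. In DN4, 4 passed in B6g7, 3 higher and 1 lower, where 59.3% of all genes passed, and 3 passed in NOD, all higher, where 25.3% passed. Cd244a passed in none of these settings, so without it the same counts were out of 6 genes. The count in B6g7 DN4 was near the background share.

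The Slamf1 rise was 3.93-fold in B6g7 DN4, at 1.98 ± 0.15 log2 (limma adjusted p = 1.97e-07), and 4.34-fold in NOD DN4, at 2.12 ± 0.15 (adjusted p = 6.75e-07). In DN2-3 the difference was 0.81 ± 0.15 in B6g7 (adjusted p = 0.00189) and 0.27 ± 0.15 in NOD, which did not pass (adjusted p = 0.196). Without replicate 1 of NOD DN2-3 the latter was 0.43 and did not pass either (limma adjusted p = 0.064). The BDC/NOD DN4 arrays, at 8.59 and 8.78, came close to the B6g7 DN4 arrays without the transgene, at 8.98 and 8.65. Cd84 was 1.67-fold higher in transgenic B6g7 DN4 cells (0.74 ± 0.14; limma adjusted p = 0.00055) and 1.87-fold higher in NOD DN4 (0.90 ± 0.14; adjusted p = 0.000591). In DN2-3 it went the other way, at -0.41 ± 0.14 in NOD (adjusted p = 0.0383) and -0.34 ± 0.14 in B6g7, which did not pass (adjusted p = 0.0907). The Cd84 call in NOD DN2-3 was lost without any 1 of 6 arrays, at -0.41 to -0.27.

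Ly9 rose by 0.76 ± 0.10 in B6g7 DN2-3 and by 0.80 ± 0.10 in NOD DN2-3, with limma adjusted p of 0.000182 and 0.00013 (0.97 in NOD without replicate 1 of NOD DN2-3). Its DN4 differences of 0.17 and 0.23 did not pass. Sh2d1a rose by 0.86 ± 0.14 in B6g7 DN2-3 and by 1.06 ± 0.14 in NOD DN2-3, with limma adjusted p of 0.000587 and 0.000138 (0.91 in NOD without that array). In DN4 its rise was 0.37 in B6g7 (adjusted p = 0.0323) and 0.46 in NOD (adjusted p = 0.0263), each ± 0.14. The adaptor was thus higher with the transgene in all 4 settings, with no overlap between transgenic and other arrays. Its DN4 calls were lost without any 1 of 3 arrays in B6g7, at 0.23 to 0.44, and without any 1 of the 4 arrays compared in NOD, at 0.45 to 0.47. With sex as a term the DN4 differences were 0.37 in B6g7 and 0.46 in NOD. Neither then passed, with limma adjusted p of 0.0589 and 0.0531.

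Cd48 fell by 0.54 in transgenic NOD DN2-3 cells (SE 0.15; limma adjusted p = 0.0139) and had differences of 0.26, 0.14 and -0.15 elsewhere, none of which passed. The Cd48 call was lost without any 1 of 3 arrays, at -0.55 to -0.35. Slamf6 fell by 0.51 in NOD DN2-3 (SE 0.12; limma adjusted p = 0.0072) and by 0.40 in B6g7 DN4 (adjusted p = 0.0128). The latter was -0.32 and did not pass without replicate 1 of BDC/B6g7 DN4 (limma adjusted p = 0.107), and the count there was then 2. With array weights, or with only the arrays compared, the falls of Cd48, Cd84 and Slamf6 in NOD DN2-3 kept their size and did not pass. Cd244a passed in none of the 4 settings, its differences running from -0.32 to 0.27. Without replicate 1 of NOD DN2-3, the count in NOD DN2-3 was 3 rather than 5: Cd48 was at -0.35 (limma adjusted p = 0.0986) and Cd84 at -0.28 (adjusted p = 0.201), while Slamf6 at -0.36 still passed (adjusted p = 0.0484). Without replicate 2 of BDC/NOD DN2-3 that count was also 3, with Cd48 at -0.55 (limma adjusted p = 0.0604) and Cd84 at -0.27 (adjusted p = 0.278). With the male arrays left out, and so 1 array per BDC group, Slamf1 in B6g7 DN2-3 was at 0.69 and no longer passed (limma adjusted p = 0.0655), and its DN4 rises still passed.

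**Figure D3:**
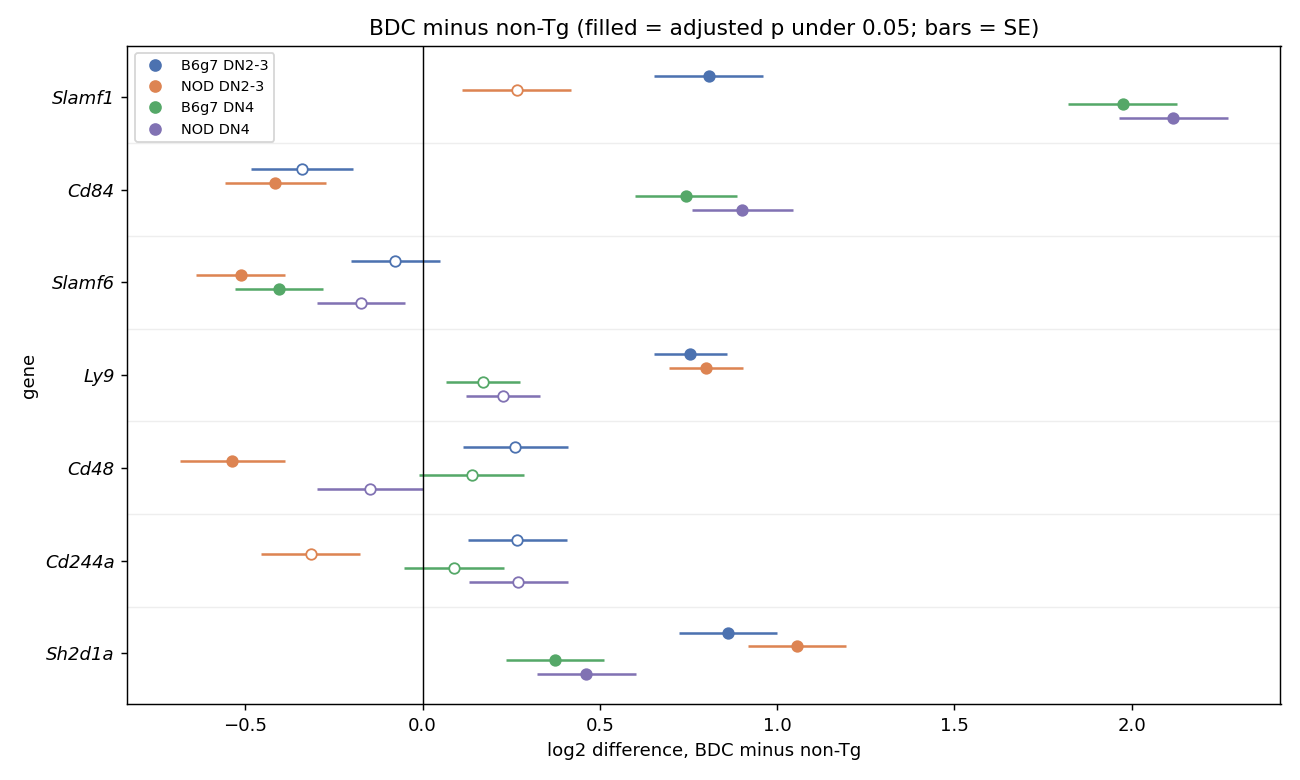
BDC minus non-Tg log2 difference (x axis) of the 7 tested SLAM family genes (y axis) in each strain and stage; bars are SE and filled points have adjusted p under 0.05. Slamf1 and Cd84 lie to the right in DN4, Ly9 lies farther to the right in DN2-3, and Sh2d1a lies to the right in all 4 settings.

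The transgenic groups also differed in lineage markers. Of the 5 gamma-delta markers, 4 rose and 1 fell with the transgene in B6g7 at both stages and in NOD DN4, and 3 rose and 1 fell in NOD DN2-3. The shares of all genes that passed were 29.4% in B6g7 DN2-3, 35.6% in NOD DN2-3, 59.3% in B6g7 DN4 and 25.3% in NOD DN4. Of the 6 DN2-3 markers, all fell in transgenic DN2-3 cells of both strains. The summed mature T cell markers ran from 5602 to 6537 in BDC/B6g7 DN4 and from 2570 to 2654 in BDC/NOD DN4, and from 1495 to 1587 in B6g7 DN4 and 1201 to 1277 in NOD DN4. In DN2-3 their sums ran from 2321 to 2892 over the 4 groups, yet 3 of the 4 markers rose and 1 fell with the transgene in both strains, with median differences of 1.09 in B6g7 and 1.05 in NOD, at the stage where Ly9 and Sh2d1a rose. Lyz2, the myeloid marker, fell with the transgene by 1.64 in B6g7 DN2-3 and by 1.69 in NOD DN2-3, and Cd79b by 0.58 and 0.88. None of the gamma-delta or mature T cell markers was below background throughout, and the part of these markers in the SLAM differences was not tested. Of the 5 genes of the DN4 list, 1 rose and 4 fell with the transgene in B6g7 DN4, where 59.3% of all genes passed. In NOD DN4, where 25.3% passed, 0 rose, 2 fell and 3 did not pass. Cd8a, a gene of that list and a coreceptor gene switched on in the step that follows DN4, was singled out after its values were seen. It read 9.57 and 9.39 in B6g7 DN4, 8.85 and 8.97 in NOD DN4, 6.96 and 6.94 in BDC/B6g7 DN4 and 8.50 and 8.57 in BDC/NOD DN4.

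The third comparison set DN4 against DN2-3 cells of the same strain and genotype. Ly9 rose at DN4 in both strains with and without the transgene. Sh2d1a rose in 3 of these 4 settings and Cd48 fell in 3. Cd244a fell in non-Tg cells of both strains, and Slamf1 and Cd84 rose in transgenic cells of both strains. Of the 7 tested genes, 5 passed in non-Tg B6g7 (3 higher, 2 lower), where 42.8% of all genes tested passed, and 5 in non-Tg NOD (2 higher, 3 lower), where 38.6% passed. With the transgene, 6 passed in B6g7 (4 higher, 2 lower), where 50.8% of all genes passed, and 4 in NOD, all higher, where 11.1% passed. The last count was 2 without replicate 2 of BDC/NOD DN2-3 or replicate 1 of BDC/NOD DN4. Without Cd244a, which in BDC/B6g7 is compared with the group that brought it past the filter, the counts of 6 genes were 4, 4, 5 and 4. Deviations of same-numbered DN2-3 and DN4 arrays of a strain and genotype correlated from 0.10 in non-Tg B6g7 to 0.58 in non-Tg NOD. Whether the numbers pair the stages is not settled by these values. With the replicate number within strain and genotype as a random replicate block, 4 more stage differences passed: Slamf1 in non-Tg B6g7 (limma adjusted p = 0.0171) and in non-Tg NOD (adjusted p = 0.0164), and Cd48 (adjusted p = 0.0302) and Sh2d1a (adjusted p = 0.0133) in BDC/NOD.

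Ly9 was 2.39-fold higher at DN4 in non-Tg B6g7 (1.26 ± 0.10; limma adjusted p = 1.84e-06) and 1.95-fold higher in non-Tg NOD (0.96 ± 0.10; adjusted p = 1.85e-05; 1.13 without replicate 1 of NOD DN2-3). With the transgene its rise was 0.68 in B6g7 and 0.39 in NOD, with limma adjusted p of 0.000126 and 0.0284. The rise in NOD did not pass without any 1 of the 4 arrays compared, at 0.34 to 0.44. Sh2d1a rose by 0.85 ± 0.14 in non-Tg B6g7, by 1.04 ± 0.14 in non-Tg NOD and by 0.36 ± 0.14 in BDC/B6g7, and its difference of 0.45 in BDC/NOD did not pass without the block (limma adjusted p = 0.0544). The rise in BDC/B6g7, with limma adjusted p = 0.0424, was lost without any 1 of 10 arrays, at 0.29 to 0.44. With sex as a term that rise kept its size and did not pass (limma adjusted p = 0.0549). The receptor and its adaptor followed one another over the 8 group means with a Pearson r of 0.91.

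Cd48 fell by 0.72 in non-Tg B6g7, by 0.78 in non-Tg NOD and by 0.84 in BDC/B6g7, each with an SE of 0.15 and limma adjusted p between 0.000355 and 0.00192. The fall in non-Tg NOD was 0.59 and passed without replicate 1 of NOD DN2-3. The Cd48 difference of -0.39 in BDC/NOD did not pass without the block (limma adjusted p = 0.113). Its receptor Cd244a fell by 0.74 in non-Tg B6g7 and by 0.84 in non-Tg NOD, with SE of 0.14. The Cd244a difference of -0.92 in BDC/B6g7 is given as a description, as it is taken against the group through which the gene entered the tests. In BDC/NOD the Cd244a difference was -0.25 (limma adjusted p = 0.295). With signals raised to background the fall in non-Tg NOD was 0.71 and still passed (limma adjusted p = 0.00127).

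Slamf1 rose at DN4 by 1.57 ± 0.15 in BDC/B6g7 (limma adjusted p = 2.89e-06) and by 1.45 ± 0.15 in BDC/NOD (adjusted p = 6.17e-05). Without the transgene its differences were 0.40 in B6g7 and -0.41 in NOD, with limma adjusted p of 0.0527 and 0.052 without the block, and both passed with it. Without replicate 1 of NOD DN2-3 the NOD value was -0.24 (limma adjusted p = 0.269). Cd84 rose by 1.03 ± 0.14 in BDC/B6g7 and by 0.82 ± 0.14 in BDC/NOD, was at -0.06 in non-Tg B6g7 and fell by 0.49 in non-Tg NOD (limma adjusted p = 0.0159). That fall was -0.35 without replicate 1 of NOD DN2-3 and did not pass (limma adjusted p = 0.0868), nor did it without replicate 2 of NOD DN4 (-0.34; adjusted p = 0.161). Slamf6 rose by 0.34 in non-Tg B6g7 and by 0.60 in BDC/NOD, with limma adjusted p of 0.0421 and 0.00772. The former was lost without any 1 of 6 arrays, at 0.33 to 0.35, and the latter without replicate 2 of BDC/NOD DN2-3 (0.57) or replicate 1 of BDC/NOD DN4 (0.49). Its difference in non-Tg NOD was 0.26 and did not pass, and was 0.42 and passed without replicate 1 of NOD DN2-3 (adjusted p = 0.0188). Lineage markers moved between the stages too, where 42.8% of all genes passed in non-Tg B6g7, 38.6% in non-Tg NOD, 50.8% in BDC/B6g7 and 11.1% in BDC/NOD. All 5 gamma-delta markers were higher at DN4 in transgenic cells of both strains, with medians of 1.37 in B6g7 and 0.96 in NOD, and of the 4 mature T cell markers 3 were higher in B6g7, and 2 higher and 1 lower in NOD. In non-Tg cells 2 gamma-delta markers were higher and 2 lower in B6g7, and 2 higher and 3 lower in NOD, and Lyz2 fell by 1.83 in B6g7 and fell by 1.94 in NOD. The part of these markers in the SLAM differences was not tested.

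The differences between these differences were tested as interactions, each averaged over the third factor. Cd244a passed in none of them, so without it the same counts were out of 6 genes. The transgene difference depended on stage for 4 of the 7 genes, 2 in each direction, a share near the 57.8% of all genes tested that passed. It was larger in DN4 for Slamf1, by 1.51 ± 0.15 log2 (limma adjusted p = 2.66e-06), and for Cd84, by 1.20 ± 0.14 (adjusted p = 1.03e-05). It was smaller in DN4 for Ly9, at -0.58 ± 0.10 (adjusted p = 0.000333), and for Sh2d1a, at -0.54 ± 0.14 (adjusted p = 0.00437). The strain difference depended on the transgene for 1 of the 7 genes, near the 10.9% of all genes that passed: for Cd48 it was larger in transgenic cells, at -0.54 ± 0.15 (limma adjusted p = 0.032). This call was lost when any 1 of 10 arrays was left out, with values from -0.56 to -0.46. It depended on stage for 1 gene, no larger a share than the 21.8% of all genes that passed: for Slamf1 it was larger in DN4, at -0.46 ± 0.15 (limma adjusted p = 0.0482). This call was lost when any 1 of 13 arrays was left out, with values from -0.52 to -0.37, among them replicate 1 of NOD DN2-3 (-0.38; limma adjusted p = 0.0651). Without that array Slamf6 passed in strain by stage, at 0.33 (limma adjusted p = 0.0404). With the random replicate block, Cd48 no longer passed in strain by transgene (limma adjusted p = 0.0592), while in strain by stage Slamf1 passed (adjusted p = 0.0133) together with Ly9 at -0.29 (adjusted p = 0.0228) and Cd84 at -0.32 (adjusted p = 0.0467).

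**Figure D4:**
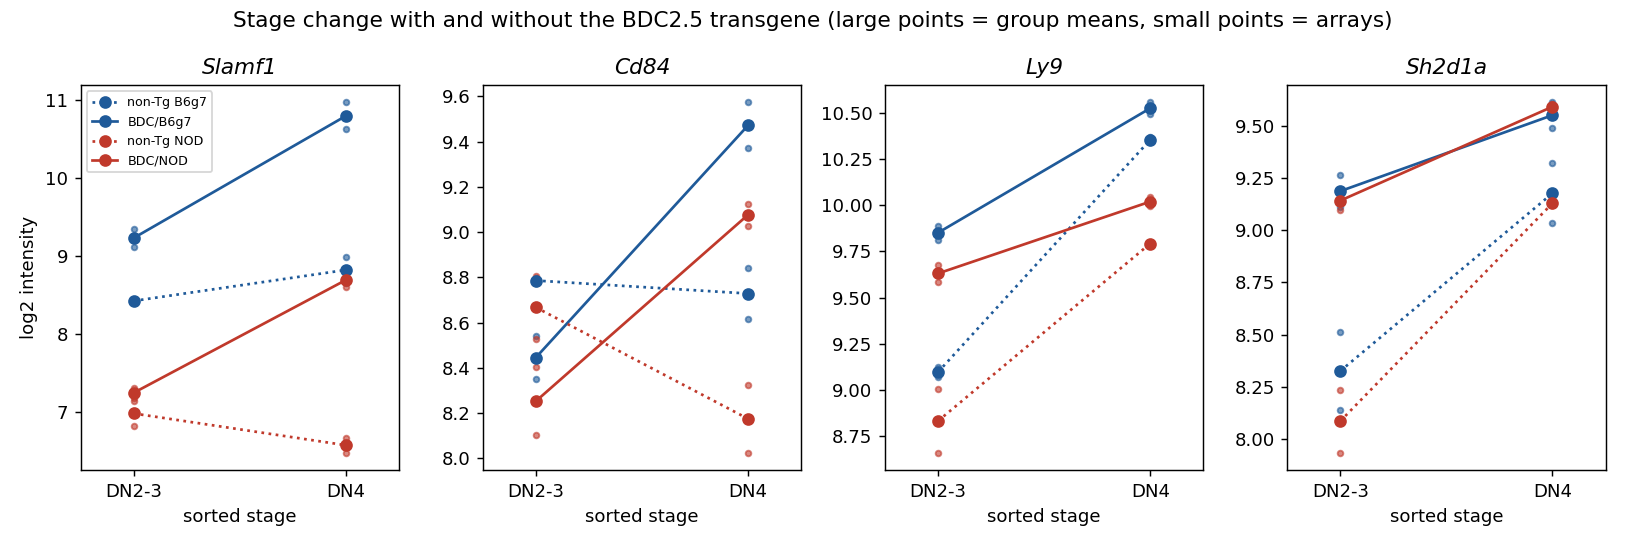
Log2 intensity (y axis) of Slamf1, Cd84, Ly9 and Sh2d1a in DN2-3 and DN4 cells (x axis); large points joined by lines are group means, small points are arrays, solid lines are BDC and dotted lines non-Tg groups, blue is B6g7 and red is NOD. Solid lines of Slamf1 and Cd84 climb by 0.82 to 1.57 while dotted ones stay between -0.49 and 0.40, and those of Ly9 and Sh2d1a climb by less than the dotted ones.

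The wider pathway was read from a list of 24 genes that act with or downstream of SAP and SLAM receptors, of which 21 were on the array and 17 were tested. In NOD minus B6g7 averaged over contexts 3 were higher, 6 were lower and 8 did not pass, where 41.6% of all genes passed. The 3 with the largest fall were Dok2, an inhibitory adaptor recruited by SLAM receptors, at -0.45 ± 0.07, Prkcq, the kinase PKC-theta downstream of SAP and Fyn, at -0.41 ± 0.04, and Inpp5d, the lipid phosphatase SHIP, at -0.37 ± 0.08. Those higher were Becn1 at 0.29, Cd2, the other binding partner of Cd48, at 0.28 ± 0.05, and Pik3c3 at 0.12. The median of the 17 was -0.07 log2, against 0.04 over all genes tested. The alternative SAP-like adaptors Sh2d1b1 and Sh2d1b2 and the receptor genes Slamf8 and Slamf9 were too low to be tested.

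With the transgene, 11 of the 17 pathway genes rose in B6g7 DN4 and none fell, where 59.3% of all genes passed, led by Prkcq at 2.31 ± 0.08, Fyn at 2.18 ± 0.18 and Inpp5d at 1.70 ± 0.16. In NOD DN4, where 25.3% of all genes passed, 5 rose and none fell, led by Prkcq at 1.71, Dok2 at 1.24 and Inpp5d at 0.88. In DN2-3, 6 rose and 1 fell in B6g7, where 29.4% of all genes passed, and 5 rose and 2 fell in NOD, where 35.6% passed. Cd2 had the largest rise there, by 2.62 ± 0.11 in B6g7 and by 2.49 ± 0.11 in NOD, and Csk, a kinase that restrains Src family kinases, rose by 0.62 and 0.86. Pik3r1, a PI3-kinase subunit, fell by 0.66 and 0.63. Dok2 rose by 0.75 and 0.81, and Pik3c3 fell by 0.26 in NOD.

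A list of 18 transcription factors of early and innate-like T cells had 16 members on the array, all of them tested. In the strain average 5 were higher in NOD, 2 were lower and 9 did not pass, a share near the 41.6% of all genes. Zbtb16, which encodes PLZF, the factor of NKT cells, was higher by 0.55 ± 0.07, followed by Egr1 at 0.33 and Id2 at 0.31. Runx3 was lower, at -0.59 ± 0.07, and Gata3 was lower, at -0.25 ± 0.06. With the transgene 8 rose and 1 fell in B6g7 DN4, a share near the 59.3% of all genes, and 7 rose and 3 fell in NOD DN4, where 25.3% of all genes passed. Runx3 led in both, by 2.07 ± 0.15 and 1.80 ± 0.15, with Sox4 at 2.00 and 1.30 and Gata3 at 1.54 and 1.38, while Tbx21 fell by 1.05 and 0.79. Id2 fell by 0.82 and Id3 by 0.41 in NOD DN4. In DN2-3, 3 rose and 3 fell in B6g7, where 29.4% of all genes passed, and 4 rose and 5 fell in NOD, where 35.6% passed. Id3 led the rises, by 1.12 in B6g7 and 0.79 in NOD, with Runx3 at 0.67 and Gata3 at 0.54 in B6g7 and Sox4 at 0.75 and Zbtb16 at 0.67 in NOD. Runx1 fell by 0.54 and 0.42 and Lef1 by 0.42 and 0.33, Tcf12 fell by 0.24 in B6g7, and Id2 fell by 1.15 in NOD.

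The genes whose 8 group means were most like those of each member were sought among the 3009 other tested genes whose own means spanned at least 1 log2. Likeness was measured by Pearson r over 8 group means from shared arrays and serves as a description. For Slamf1 they were Nr4a2, an orphan nuclear receptor gene, with r = 0.97, whose means ran from 10.69 in NOD DN2-3 to 12.81 in BDC/B6g7 DN4, and Mpp4 with r = 0.97. For Cd84 they were Ap3m2 with r = 0.98 and Srgap3 with r = 0.96. For Ly9 they were Mef2a with r = 0.95 and Sla with r = 0.91, and for Sh2d1a Camk4 and Cd2, both with r = 0.96. Cd2 means ran from 6.45 in B6g7 DN2-3 to 10.38 in BDC/B6g7 DN4. For Cd48 they were Mfsd13a with r = 0.95 and Ctla2b with r = 0.94, and for Cd244a Ctla2b and Lyl1, both with r = 0.98. Ctla2b, like Cd244a, reached the filter only through BDC/B6g7 DN2-3, at 7.28. Its DN4 means, 5.66 to 5.95, were not above background, nor were those of Mpp4 in NOD DN2-3 (5.70) and NOD DN4 (5.77). Slamf6 had the weakest counterparts, Prxl2c with r = 0.90 and Slc30a4 with r = 0.78. Within the family, Slamf1 and Cd84 had r = 0.79, and Cd48 and Ly9 had r = -0.37.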

How the data were processed

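Total RNA of 16 sorted thymocyte samples was extracted with Trizol, biotin-labelled and hybridised to Affymetrix Mouse Gene arrays, per the labels' protocols. Each deposited file holds a linear intensity per probe set, which the authors made with RMA in Affymetrix Power Tools per the submitters' processing notes, with versions not given in the sources used here. RMA as a method fits background and quantile-normalizes, so levels below background carry little order. The deposited arrays nevertheless did not share 1 distribution. Their ratio of upper to lower quartile ran from 6.82 to 10.30, and was 7.60 and 7.46 in B6g7 DN4. Replicate arrays were deposited separately. No read depth exists for arrays, and their number limits the precision.

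Of 25108 probe sets, 21157 had 1 gene symbol, 1341 several and 2610 none in the platform annotation, and those with 1 symbol covered 19531 genes, the brightest probe set standing for a gene. Values were taken as log2. Genes with a group mean of at least 7.05 log2 (the median of named probe sets) were tested, 10689 in all, with limma 3.58.1 in R 4.3.3 on 8 group means, 8 residual and 5.06 prior degrees of freedom, and Benjamini-Hochberg adjustment over all genes in each of 16 comparisons. Comparisons share groups, so they are not independent of each other. Figures used matplotlib 3.10.9 and pandas 2.3.3. The fit was tested on simulated data.

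Deviations of same-numbered arrays from their group means correlated from 0.10 to 0.58 between DN2-3 and DN4 of the same strain and genotype (4 of 4 over 0.1), from 0.31 to 0.48 among the BDC groups (6 of 6), where the number is also the sex, and from -0.25 to 0.26 in the other 20 pairs of groups (4 over 0.1). The stage value of non-Tg B6g7, 0.10, lay within the range of those other pairs. The BDC stage values, 0.48 and 0.46, stood beside 0.31 to 0.41 between the strains. The check therefore does not settle whether the numbers pair the stages. The labels give no pairing, and the main fit has no block. Tested alternatives were other filters, normalizations, spreads, blocks, arrays in the fit and probe set rules, sex, background and each array left out. Named genes were the members; up to 3 genes higher and 3 lower of each of the signalling and innate-like lists in the strain average and each transgene comparison; up to 4 neighbours that passed and the nearest measured on each side; the 2 genes with the most similar group means per member, predicted genes left out; and the brightest marker per list. The members and lists were chosen with earlier results of these data known. Differences between NOD and reference sequence under the probes were not examined here.

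Ranges of the marker lists not described above are as follows. Summed T lineage markers ran from 13720 to 20620 and DN2-3 markers from 2758 to 17430. The DN4 list, in which Kit was brightest, ran from 1275 to 3469. Sums of B cell markers ran from 566 to 1001, myeloid and dendritic markers from 380 to 608.4 and stromal markers from 535.2 to 739.8. Klf1, the erythroid marker, ran from 42.63 to 74.11.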

Additional observations from a re-analysis of the deposited data

Results flagged for a closer look

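There were 6 interactions of SLAM family genes that passed the test of the difference between groups by limma over all genes. The counts, 4 of 7 for transgene by stage and 1 of 7 for each of the others, were near or below the shares of all genes that passed, 57.8%, 10.9% for strain by transgene and 21.8% for strain by stage. The transgene difference was larger in DN4 than in DN2-3 for Slamf1, by 1.51 ± 0.15 log2 (adjusted p = 2.66e-06), and for Cd84, by 1.20 ± 0.14 (adjusted p = 1.03e-05). It was smaller in DN4 for Ly9, at -0.58 ± 0.10 (limma adjusted p = 0.000333), and for Sh2d1a, at -0.54 ± 0.14 (adjusted p = 0.00437). The strain difference of Cd48 was larger in transgenic cells, at -0.54 ± 0.15 (limma adjusted p = 0.032), and that of Slamf1 was larger in DN4, at -0.46 ± 0.15 (adjusted p = 0.0482). The last pair each lost the call under leave-one-out, as given above.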

How the results depend on the processing

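Of 112 pairs of a tested SLAM gene and a comparison, 59 passed, and 29 of these passed under every alternative run while 30 were lost under at least 1. Of 3322 alternative values, 3133 kept their side of the threshold, 133 fell short of it, 56 newly passed it and 0 reversed a call. Among the 3133 were 32 values, in 15 pairs that did not pass, whose sign changed, all between -0.10 and 0.10 log2. Slamf1 kept its strain calls in every context and the average, and its transgene calls in DN4, under every alternative. The causes of the changes below were not tested.
The larger moves in the count of SLAM genes that passed were as follows, and smaller moves are not all listed. Among the smaller ones, Cd244a at -0.27 and Cd84 at -0.29 no longer passed in the strain average with only female arrays. With only female arrays, where the lone array of a BDC group is assumed to vary like the others, it was 1 for the strain in BDC DN2-3, in non-Tg DN4 and in BDC DN4, 2 for the transgene in NOD DN2-3 and in B6g7 DN4, 1 for the stage in BDC NOD and 0 for strain by transgene and for strain by stage. With only the arrays compared it was 5 for the transgene in B6g7 DN2-3, 1 in NOD DN2-3 and 2 for the stage in non-Tg NOD. With array weights it was 2 for the transgene in NOD DN2-3, 3 for the stage in non-Tg NOD and 0 for strain by stage. Strain by transgene gave 0 after quantile normalization again and with the random replicate block. Strain by stage gave 0 with no filter, with centring on array medians and with sex as a term, and 3 with the random replicate block.
Some differences that do not use the NOD DN2-3 group newly passed at unchanged size when either of its arrays was left out. They were Cd48 between strains in non-Tg DN4, Cd84 with the transgene in B6g7 DN2-3 and Ly9 with it in NOD DN4. Between stages they were Slamf1 in non-Tg B6g7, and Cd48 and Sh2d1a in BDC NOD. With 1 array left, that group adds nothing to the shared estimate of the spread. The SE of Cd48 was then 0.12 without replicate 1, against 0.15 with all arrays. Leaving out each array gave 1 to 3 for the strain in non-Tg DN2-3, 3 to 4 in BDC DN2-3, 2 to 4 in non-Tg DN4, 3 to 4 in BDC DN4 and 6 in the average. It gave 3 to 4 for the transgene in B6g7 DN2-3, 3 to 5 in NOD DN2-3, and 2 to 4 in DN4 of B6g7 and of NOD. It gave 4 to 6 for the stage in non-Tg cells of either strain, 5 to 6 in BDC B6g7 and 2 to 6 in BDC NOD, and 0 to 1 for strain by transgene, 0 to 3 for strain by stage and 4 for transgene by stage.
Calls that the random replicate block changed are given above with the stages and interactions. The fixed replicate block lost no call and added 3, of Cd84 with the transgene in B6g7 DN2-3 (-0.34; limma adjusted p = 0.0316) and of Slamf1 between stages in non-Tg B6g7 (0.40; adjusted p = 0.025) and non-Tg NOD (-0.41; adjusted p = 0.0243). Quantile normalization again moved the median of all genes by -0.12 log2 in the strain difference of non-Tg DN4.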

Other observations

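The transgenic groups held 1 male and 1 female array each. Male minus female log2 differences of the tested SLAM genes lay between -0.35 and 0.35, and those of Slamf1 were 0.24 in BDC/B6g7 DN2-3, 0.12 in BDC/NOD DN2-3, 0.35 in BDC/B6g7 DN4 and -0.19 in BDC/NOD DN4. With 1 array of each sex in a group, these differences have no replicate check. Slamf1 also showed the widest span of the family over the 8 group means, 4.22 log2, followed by Ly9 at 1.70, Cd48 at 1.52, Sh2d1a at 1.51, Cd244a and Cd84 at 1.30 each, Slamf6 at 1.01 and Slamf7 at 0.31.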
